A study of Caenorhabditis elegans with 15 samples.

Results

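Transcripts of 39 genes of the respiratory chain and the ATP synthase were followed in whole Caenorhabditis elegans larvae. The set holds the 12 protein-coding genes of the mitochondrial genome (MtDNA) and 27 nuclear genes, out of 20541 genes in the table. Nuclear members were taken by name: genes beginning with nuo-, cox-, atp-, ucr-, cyc-, sdha- or sdhb-, together with gas-1, isp-1 and mev-1. The choice by name leaves out other nuclear subunits, which are described as separate lists, and it brings in 4 cox genes whose products assemble complex IV rather than belong to it. All 39 members had enough reads to be tested, as did 14037 genes of the whole table.

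The animals were wild-type N2 hermaphrodites, synchronized as L1 larvae, fed OP50 bacteria for 34 h until the L3 stage and then treated for 12 h. The 3 groups were larvae given 50 µM ursolic acid (UA), a plant triterpenoid, larvae given DMSO, the vehicle of UA, and untreated larvae. Each group had 5 libraries of poly-A selected RNA from larvae harvested at L4, and each of 5 batches held 1 library of each group. The labels do not say whether the 3 libraries of a batch came from 1 culture, so p-values measure the spread between these libraries. Total counts per library ranged from 12485842 in UA batch 5 to 27474535. In whole animals, fewer cells of a type and less RNA per cell cannot be told apart.

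The respiratory chain passes electrons from NADH and succinate through complexes I and II to ubiquinone, then through complex III, cytochrome c and complex IV to oxygen. Complexes I, III and IV pump protons across the inner mitochondrial membrane, and the ATP synthase, also called complex V, uses the returning protons to make ATP. Apart from complex II, which is wholly nuclear-coded, each complex joins a few MtDNA-coded core subunits to many nuclear-coded ones, so its assembly draws on transcripts made in separate compartments. The MtDNA of Caenorhabditis elegans carries all its genes on 1 strand, and their transcripts are cut from long precursors and carry poly-A tails.

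The table lists MtDNA genes mostly by sequence names, and they are called here by the RefSeq names of the same positions. The genes lie on the plus strand of the MtDNA of build WBcel235. ND1 (MTCE.11, bases 1763 to 2635), ND2 (MTCE.16, 3389 to 4269), ND3 (MTCE.34, 11356 to 11691) and ND4 (MTCE.25, 6506 to 7808) encode membrane subunits of complex I. So do ND4L (MTCE.4, 549 to 783), ND5 (MTCE.35, 11691 to 13272) and ND6 (MTCE.3, 113 to 549). CYTB (ctb-1, 4504 to 5621) encodes cytochrome b of complex III. COX1 (MTCE.26, 7827 to 9428), COX2 (MTCE.31, 9649 to 10348) and COX3 (MTCE.23, 5678 to 6449) encode the catalytic core of complex IV, and ATP6 (MTCE.12, 2634 to 3235) encodes the proton channel subunit of the ATP synthase. ND6 and ND4L share 1 base, ND1 and ATP6 share 2 bases, and ND3 and ND5 share 1 base, so reads at these joints are uncertain.

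Levels per length, in reads per kilobase of exon scaled to library size (RPKM), spanned a wide range within both sets. The highest median over the 15 libraries belonged to atp-2, the catalytic beta subunit of the ATP synthase, at 1650.4 RPKM (lowest 1368, highest 1868). It was followed by cyc-2.1, a cytochrome c gene, at 1407 RPKM and by atp-5, a stalk subunit of the ATP synthase, at 935 RPKM. The highest MtDNA gene, COX3, had a median of 777 RPKM and lay within the range of atp-3, the subunit that joins the head of the ATP synthase to its stalk (675 to 802 RPKM). COX1 had 734 RPKM, CYTB 487, ATP6 485, COX2 400, ND1 395 and ND5 350 RPKM. ND6 had 195 RPKM, ND4 139, ND3 133, ND2 101 and ND4L 46.9 RPKM. All 5 lowest MtDNA genes were thus subunits of complex I, and ND4 (111 to 187 RPKM), ND3 (97.8 to 177) and ND2 (84.4 to 130) overlapped across libraries. The 3 lowest members of all were assembly factors of complex IV, cox-17 at 32.2 RPKM, cox-11 at 23.2 RPKM and cox-10 at 13.6 RPKM. Of the paralogs, cyc-2.2 had 98.0 RPKM beside 1407 RPKM for cyc-2.1, and sdha-2 had 55.4 RPKM beside 108 RPKM for sdha-1. Poly-A selection acts on each transcript before these levels are read, so they are levels in selected RNA.

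**Figure D1:**
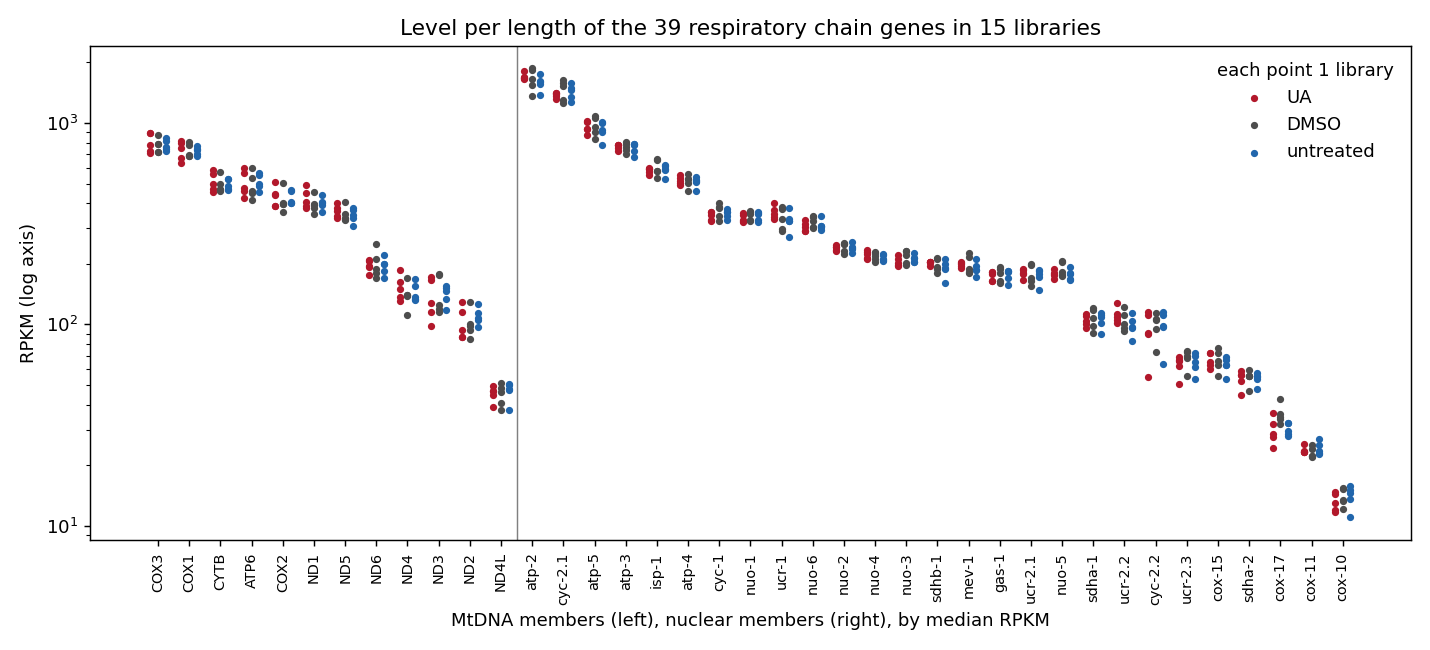
Level per length (RPKM, log axis) of the 39 genes, with each point 1 library and colours for UA, DMSO and untreated larvae. MtDNA genes, at the left, run from COX3 at a median of 777 RPKM to ND4L at 46.9 RPKM, and nuclear genes, at the right, from atp-2 at 1650.4 RPKM to cox-10 at 13.6 RPKM.

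Whether UA altered these transcripts was asked against its vehicle first. None of the 39 genes passed the threshold, an adjusted p under 0.02 in edgeR's quasi-likelihood fit of treatment and batch over all 15 libraries, where 38 of 14037 genes did (0.271%). DESeq2 also called 0 members. At an unadjusted p under 0.05 2 members were higher in UA (1 MtDNA, 1 nuclear) and 4 lower (all nuclear), beside 6.52% and 7.49% of all genes tested. The log2 fold changes of UA against DMSO ran from -0.28 for cox-17 to 0.13 for ND4, and they were positive in 10 of 12 MtDNA and 11 of 27 nuclear genes, beside 49.4% of all genes. The median was 0.04 over the 12 MtDNA genes, -0.02 over the 27 nuclear genes and -0.0013 over all genes tested. The 95% intervals of the log2 fold change reached at most 0.31 from zero among MtDNA genes (ND4) and at most 0.46 among nuclear genes (cox-17), with medians of the farther bound of 0.20 and 0.12. Changes within those bounds are not shown to be absent. In 22 of 27 nuclear genes and 7 of 12 MtDNA genes the interval stayed within 0.2 of zero on the log2 scale.

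Against untreated larvae, 0 of the 39 genes were called for UA, where 147 genes were called (1.05%), and 0 by DESeq2. For DMSO against untreated larvae 0 were called, where 17 genes were (0.121%), and again 0 by DESeq2. At an unadjusted p under 0.05 3 members were higher and 0 lower for UA against untreated larvae, beside 6.64% and 5.71% of all genes, and 3 were higher and 0 lower for DMSO against untreated larvae, beside 4.42% and 3.49%. These comparisons share libraries with the first and are not separate evidence. The log2 fold changes ran from -0.09 to 0.18 for UA against untreated larvae, where 8 of 12 MtDNA and 13 of 27 nuclear genes were positive (52.1% of all genes), and from -0.12 to 0.25 for DMSO against untreated larvae. In no comparison did a member have groups whose libraries did not overlap, as 0.499% of all genes had for UA against DMSO, 0.741% for UA against untreated and 0.157% for DMSO against untreated larvae. For UA against untreated larvae, 1 member was higher in all 5 batches and 2 were lower, beside 6.06% and 5.12% of all genes, and for DMSO against untreated larvae 3 were higher and 1 was lower, beside 5.16% and 4.23%. For DMSO against untreated larvae, 25 of 27 nuclear genes had a positive log2 fold change, beside 53.8% of all genes. Their median was 0.03, and the standard error of a single gene had a median of 0.04. Within batches 1 to 5, 14, 23, 22, 20 and 12 of the 27 were higher in DMSO, where 50.3% to 52.6% of all genes were. Only 5 of 12 MtDNA genes were positive in that comparison, and their median was -0.01.

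**Figure D2:**
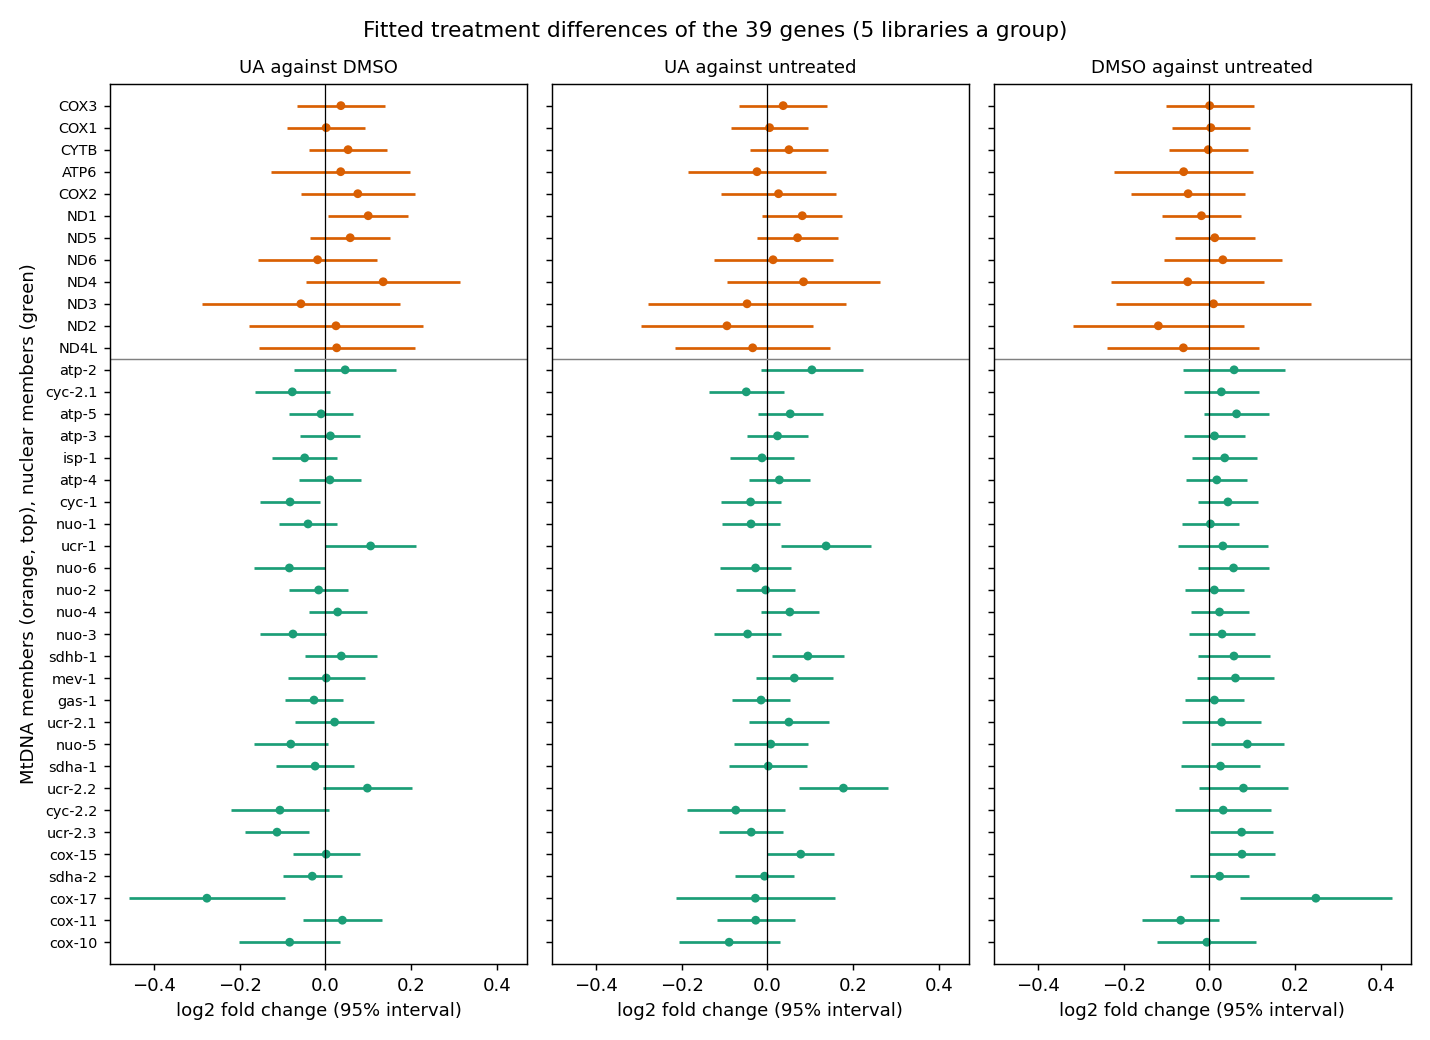
Log2 fold change (points) with its 95% interval (lines) of each gene in the 3 comparisons of treatments (UA against DMSO at the left, UA against untreated in the middle, DMSO against untreated at the right), with 5 libraries a group. MtDNA genes are orange and nuclear genes green. Most points lie within 0.1 of zero, cox-17 lies at -0.28 for UA against DMSO and at 0.25 for DMSO against untreated larvae, and ucr-2.2 at 0.18 for UA against untreated larvae.

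The smallest p of the first comparison belonged to cox-17, a copper chaperone that supplies complex IV (chromosome III, bases 190986 to 191981). It had 10.3, 8.90, 9.19, 7.81 and 11.7 CPM in the UA libraries of batches 1 to 5, 10.9, 11.5, 13.6, 10.3 and 11.1 CPM in the DMSO libraries and 9.01, 10.3, 10.4, 9.44 and 9.16 CPM in the untreated libraries. DMSO lay above UA in batches 1 to 4 and above untreated larvae in all 5 batches, and the groups overlapped. Its log2 fold change was -0.28 ± 0.09 (SE, n = 5 each) for UA against DMSO, with an edgeR adjusted p of 0.157, and 0.25 ± 0.08 for DMSO against untreated larvae, with an adjusted p of 0.425. This gene rested on 149 to 298 counts per library, among the fewest of the members.

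For UA against DMSO, genes of complex III were among both the 3 highest and the 3 lowest log2 fold changes of nuclear members. ucr-1 and ucr-2.2 encode core proteins of complex III. In CPM, counts scaled to library size, ucr-2.2 (chromosome X, 15173904 to 15178145) had 162, 152, 183, 147 and 157 CPM in the UA libraries of batches 1 to 5, 145, 159.5, 176, 133 and 138 CPM in the DMSO libraries and 138, 164, 149, 119.1 and 140.3 CPM in the untreated libraries. UA was the highest of the 3 groups in batches 1, 3, 4 and 5 and the lowest in batch 2. The log2 fold change was 0.18 ± 0.05 (SE, n = 5 each) for UA against untreated larvae with an edgeR adjusted p of 0.0890, and 0.10 ± 0.05 for UA against DMSO with an adjusted p of 0.387. Without the UA library of batch 2, the adjusted p for UA against untreated larvae was 0.0125 and the log2 fold change 0.23, so that 1 library decided the call. Without all of batch 2 the adjusted p was 0.0105. Over its 30 alternatives it ran from 0.0105 to 0.99999, the highest being the fit without batch.

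ucr-1 had 634, 608, 690.3, 569 and 587 CPM in the UA libraries of batches 1 to 5, 575, 659, 639, 511 and 501 CPM in the DMSO libraries and 561, 652, 576, 467 and 562 CPM in the untreated libraries. It too was highest in UA in every batch but batch 2, and its log2 fold change was 0.11 ± 0.05 against DMSO and 0.14 ± 0.05 against untreated larvae (edgeR adjusted p of 0.356 and 0.233). A further paralog, ucr-2.3, had 93.6, 89.8, 83.6, 89.4 and 68.5 CPM in the UA libraries of batches 1 to 5, 98.2, 99.8, 94.4, 92.1 and 75.1 CPM in the DMSO libraries and 97.7, 94.1, 88.3, 83.5 and 72.6 CPM in the untreated libraries. UA lay below DMSO in all 5 batches for ucr-2.3, the only member lower in all 5, as 5.98% of all genes were, and no member was higher in all 5, as 5.01% were. Its log2 fold change was -0.11 ± 0.04 with an edgeR adjusted p of 0.161.

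For DMSO against untreated larvae, nuo-5, a core subunit of complex I, had a log2 fold change of 0.09 ± 0.04 (edgeR adjusted p of 0.611) and cox-11, which delivers copper to complex IV, had -0.07 ± 0.04 (adjusted p of 0.745) and lay below in all 5 batches. Of the rest, cyc-1, cytochrome c1 of complex III, had a log2 fold change of -0.08 for UA against DMSO (edgeR adjusted p of 0.277) and nuo-6, an accessory subunit of complex I, -0.08 (adjusted p of 0.353). The beta subunit gene atp-2 had 3219, 3262, 3496, 3177 and 3236 CPM in the UA libraries of batches 1 to 5, 3184, 3526, 3604, 2995 and 2638 CPM in the DMSO libraries and 3088, 3387, 3018, 2667 and 3117 CPM in the untreated libraries. Its level in DMSO batch 5 was the lowest of the 15 libraries, and UA exceeded DMSO by 0.29 on the log2 scale in that batch but by 0.05 ± 0.06 (SE) in the fit over all batches. In DMSO batch 5 the summed level of 5 body-wall muscle markers (myo-3, unc-54, unc-15, unc-22 and hlh-1) was 9731 CPM, beside 12752 CPM in UA batch 5 and 13398 CPM in untreated batch 5. The part of these markers in the atp-2, ucr-1 and ucr-2.2 values of that batch was not tested. Complex II showed small differences: sdhb-1, its iron-sulfur subunit, had a log2 fold change of 0.09 ± 0.04 for UA against untreated larvae (edgeR adjusted p of 0.321) and 0.04 against DMSO. mev-1, a membrane anchor subunit of complex II that holds cytochrome b, had 0.0020 against DMSO and 0.06 against untreated larvae. gas-1, a core subunit of complex I, had -0.03 and -0.01, and isp-1, the Rieske iron-sulfur protein of complex III, -0.05 and -0.01.

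Among MtDNA genes the smallest p for UA against DMSO was that of ND1. It had 354, 330.0, 392, 339.6 and 431 CPM in the UA libraries of batches 1 to 5, 341, 329, 310.0, 345 and 396 CPM in the DMSO libraries and 354, 315, 341, 349 and 383 CPM in the untreated libraries. UA was the higher in 4 of 5 batches, by 0.34 on the log2 scale in batch 3 and by at most 0.12 in the others, and the fitted log2 fold change was 0.10 ± 0.04 with an edgeR adjusted p of 0.325. Over its 30 alternatives that value ran from 0.04 to 0.13. ND4 had the largest log2 fold change, 0.13 ± 0.09, from 179, 211, 243, 171 and 195 CPM in the UA libraries of batches 1 to 5, 181, 183, 145, 182 and 220.4 CPM in the DMSO libraries and 171, 174, 202, 179 and 218 CPM in the untreated libraries. In ND4 the DMSO library of batch 3 was the lowest of all 15 and the UA library of the same batch the highest. Without batch 3 its log2 fold change was -0.01, without the DMSO library of batch 3 it was 0.0096, without the UA library of batch 3 it was 0.04 and without batch 5 it was 0.21.

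Taken over the 12 MtDNA genes, the differences between UA and DMSO varied between batches. In batch 3, UA was above DMSO in 12 of 12 MtDNA genes, by 0.15 to 0.75 on the log2 scale with a median of 0.33, where 51.2% of all genes were above. In that batch DMSO also lay below untreated larvae in 12 of 12 genes, with a median difference of -0.27. UA lay above untreated larvae there in 10 of 12 genes, with a median difference of 0.11. The DMSO library was thus the lowest of batch 3 for all 12 genes, and the UA library was the highest for 10. In batch 5 UA was below DMSO in 8 of 12 MtDNA genes, and in batch 4 in 11 of 12, with medians over the 12 genes of -0.14 and -0.08. Without batch 3 the median log2 fold change of the MtDNA genes was -0.03, with 1 of 12 positive, beside 0.04 with 10 of 12 positive in all batches. Leaving out the DMSO library of batch 3 alone gave -0.03 with 4 of 12 positive, and leaving out the UA library of batch 3 alone gave -0.0035 with 6 of 12 positive. The direction of this median therefore rested on that batch.

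Within batch 5 the 12 MtDNA genes did not move alike. ND3 had 43.0, 57.5, 56.0, 38.6 and 32.9 CPM in the UA libraries of batches 1 to 5, 38.7, 59.1, 40.1, 42.0 and 59.6 CPM in the DMSO libraries and 44.7, 49.3, 52.2, 39.7 and 50.98 CPM in the untreated libraries. UA batch 5 was the lowest of all 15 libraries for ND3, at a difference from DMSO batch 5 of -0.86 on the log2 scale, and ND2 (-0.58), ATP6 (-0.39) and ND6 (-0.37) were also lower there. ND1, CYTB, COX3 and COX1 differed by 0.02 to 0.12 in the same pair of libraries. ND2 had 83.1, 101, 114, 76.4 and 76.2 CPM in the UA libraries of batches 1 to 5, 86.3, 88.7, 74.3, 82.4 and 114 CPM in the DMSO libraries and 92.5, 94.3, 101, 85.5 and 111 CPM in the untreated libraries. UA batch 5 was the shallowest library, with 418 reads of ND3 and 969 of ND2. The part of depth in this pattern was not tested.

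**Figure D3:**
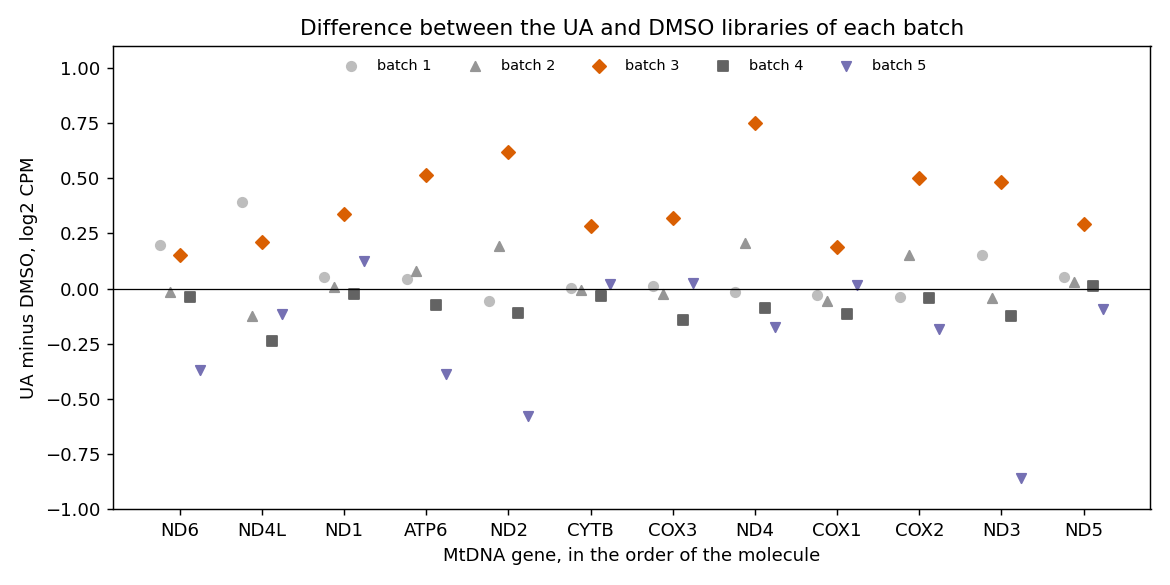
Log2 CPM of UA minus log2 CPM of DMSO within each batch (vertical axis) for the 12 MtDNA genes in the order of the molecule. Batch 3 (orange diamonds) lies above zero for all 12 genes, from 0.15 to 0.75, and batch 5 (purple triangles) runs from -0.86 for ND3 to 0.12 for ND1.

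MtDNA members held 0.376% to 0.509% of all counts of a library and nuclear members 1.02% to 1.20%. The log2 ratio of summed MtDNA counts to summed nuclear counts was -1.45, -1.39, -1.28, -1.49 and -1.26 in the UA libraries of batches 1 to 5. It was -1.43, -1.51, -1.67, -1.35 and -1.12 in the DMSO libraries, which held both the lowest and the highest value of the 15, and -1.39, -1.52, -1.33, -1.28 and -1.29 in the untreated libraries. The mean was -1.37 ± 0.10 in UA, -1.42 ± 0.20 in DMSO and -1.36 ± 0.10 in untreated larvae (SD, n = 5 each). Within batches, UA minus DMSO averaged 0.04 ± 0.22 (SD, n = 5), UA minus untreated -0.01 ± 0.13 and DMSO minus untreated -0.06 ± 0.19. UA exceeded DMSO in 2 of 5 batches. Every one of these differences was smaller than its spread over batches, and without batch 3 UA minus DMSO was -0.04 and DMSO minus untreated 0.02.

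By batch, the log2 ratio averaged -1.42 ± 0.03, -1.47 ± 0.07, -1.43 ± 0.21, -1.37 ± 0.11 and -1.22 ± 0.09 in batches 1 to 5 (SD, n = 3 each). Batch 5 was the highest, 0.25 above batch 2, beside a pooled SD of 0.12 within batches. As a linear ratio, batch 5 held 0.419 MtDNA counts per nuclear count in UA larvae, 0.459 in DMSO larvae and 0.410 in untreated larvae. Untreated batch 4, at 0.413, fell within the range of batch 5, so the batches overlapped. Without batch 5 the gap between the highest and the lowest batch was 0.10.

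**Figure D4:**
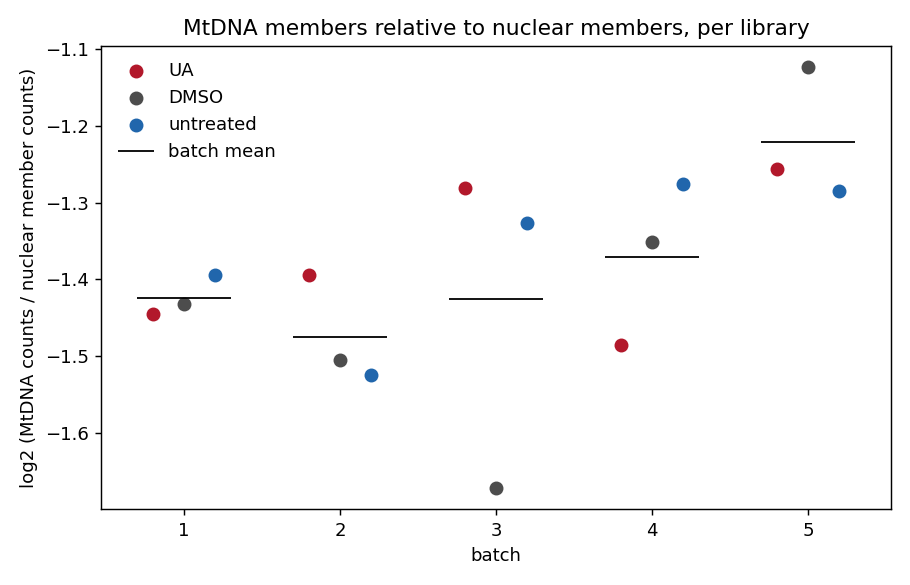
Log2 ratio of summed MtDNA counts to summed counts of the nuclear members in each of 15 libraries, by batch, with points for UA, DMSO and untreated larvae and a line at each batch mean. The lowest value, -1.67, is DMSO batch 3 and the highest, -1.12, is DMSO batch 5.

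More members passed the threshold between batches than in any comparison of treatments. In the test of all batch terms, 26 of 39 members were called at an edgeR adjusted p under 0.02, where 53.0% of all genes were. These were 5 of 12 MtDNA genes (ND1, ND5, CYTB, COX1 and COX3) and 21 of 27 nuclear genes. All 6 nuclear genes of complex III, all 4 of complex II and both cytochrome c genes were called. So were 3 of 7 nuclear genes of complex I (gas-1, nuo-1 and nuo-3), 3 of 4 of the ATP synthase and 3 of 4 assembly factors. Although many were called, the shifts were small. The fitted batch effects of a gene spanned a median of 0.27 on the log2 scale for MtDNA genes and 0.22 for nuclear genes, beside 0.36 for all genes tested. The number of members called depended on batch 4: without it 13 of 39 members were called, and without its DMSO library 17. Over the whole table, fits without a library or a batch called 5385 to 7830 genes, beside 7441 in the main fit. MtDNA calls rose to 11 of 12 without the DMSO library of batch 3 and to 9 without UA batch 5 or without the whole of batch 3. They were 3 of 12 without batch 5, without untreated batch 5 or without untreated batch 1.

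The MtDNA and the nuclear genes followed different batch profiles. The highest fitted effect was in batch 5 for 10 of 12 MtDNA genes, as for 30.0% of all genes, and for 0 of 27 nuclear genes. The highest effect was in batch 2 or batch 3 for 24 of 27 nuclear genes, as for 27.9% of all genes. Batch 4 was the lowest for 22 of 27 nuclear genes and 7 of 12 MtDNA genes, beside 2946 of 14037 genes tested. Those 22 nuclear genes, and 2 MtDNA genes, were both highest in batch 2 or 3 and lowest in batch 4, as 11.7% of all genes were. The median effects in batches 1 to 5 were -0.08, 0.01, 0.05, -0.12 and 0.13 for MtDNA genes and -0.03, 0.08, 0.07, -0.11 and -0.01 for nuclear genes, while those of all genes lay between -0.01 and 0.02. The profiles thus parted in batches 2 and 5 and met in batch 4. In the same batches, the median effects of 5 neuron markers were -0.02, 0.02, 0.02, -0.11 and 0.12. Those of 5 intestine markers were -0.06, 0.11, 0.03, -0.04 and 0.01. For 5 hypodermis markers they were -0.14, 0.11, 0.11, -0.02 and -0.14, and for 5 body-wall muscle markers 0.04, 0.10, -0.01, -0.03 and -0.09. Between batches, 5 of 5 intestine, 5 of 5 hypodermis and 0 of 5 body-wall muscle markers were called, beside 53.0% of all genes. The summed level of the neuron markers was 350.0 to 369 CPM in batch 5, 316 to 328 CPM in batch 4 and 321 to 355 CPM in batches 1 to 3, and 3 of the 5 were called between batches. The part of these markers and of the germline and oocyte markers in the MtDNA and the nuclear profile was not tested. Across the 15 libraries, the median correlation of log2 CPM was 0.68 between MtDNA genes (66 pairs), 0.57 between nuclear genes (351 pairs) and 0.17 between an MtDNA and a nuclear gene (324 pairs). The libraries share batches, and these values are a description.

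The MtDNA genes called are shown by CYTB and COX1. CYTB had 652, 642 and 587 CPM in the UA, DMSO and untreated libraries of batch 5, and 508, 521 and 519 CPM in those of batch 4. Its batch effects spanned 0.28 (edgeR adjusted p of 0.00185). COX1 had 1299, 1284 and 1194 CPM in batch 5 and 1009.9, 1094 and 1098 CPM in batch 4, in the same order of libraries, and spanned 0.24 (adjusted p of 0.00481). In both genes the libraries of these batches did not overlap. These were the batches with the highest and the lowest fitted effect of each gene, so some separation is built into the choice. COX3 had 561, 600.1, 688, 549 and 688 CPM in the UA libraries of batches 1 to 5, 557, 610.4, 552, 607 and 677 CPM in the DMSO libraries and 576, 561, 630.1, 585 and 648 CPM in the untreated libraries, with an adjusted p of 0.0141 between batches. For ND5, with 580.4, 547, 636, 532 and 599 CPM in the UA libraries of batches 1 to 5, 559.9, 536, 519, 527 and 639 CPM in the DMSO libraries and 554, 490.1, 582, 535 and 597 CPM in the untreated libraries, the adjusted p was 0.0125. ND1 was lowest in batch 2, not batch 4, and spanned 0.31 (adjusted p of 0.00147).

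The MtDNA genes not called had spans as wide but more scatter within batches. ND3 spanned 0.47, the widest of the 12, with an edgeR adjusted p of 0.0422, and it was highest in batch 2. ATP6 had 285, 339, 358, 257 and 277 CPM in the UA libraries of batches 1 to 5, 276, 320.2, 250.2, 270.2 and 362 CPM in the DMSO libraries and 292, 301, 340.2, 274 and 334 CPM in the untreated libraries and an adjusted p of 0.0646. COX2 had 271, 309, 358, 271 and 309.8 CPM in the UA libraries of batches 1 to 5, 278, 278, 254, 279 and 352 CPM in the DMSO libraries and 280.0, 279.7, 322, 285 and 325 CPM in the untreated libraries and an adjusted p of 0.0409. ND6, with 85.4, 90.7, 91.7, 76.8 and 84.7 CPM in the UA libraries of batches 1 to 5, 74.5, 91.8, 82.5, 78.9 and 109 CPM in the DMSO libraries and 87.3, 80.8, 96.7, 74.7 and 87.0 CPM in the untreated libraries, had an adjusted p of 0.0408. ND2 (0.170), ND4 (0.181) and ND4L (0.269) had the highest adjusted p of the MtDNA genes. ND4L had 11.6, 10.99, 11.02, 9.19 and 10.5 CPM in the UA libraries of batches 1 to 5, 8.82, 12.0, 9.51, 10.8 and 11.4 CPM in the DMSO libraries and 11.1, 11.2, 11.8, 8.84 and 11.9 CPM in the untreated libraries, from 134 to 303 reads per library.

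Most nuclear genes shared the dip in batch 4. The 3 libraries of batch 4 lay below all 12 others for 7 of 27 nuclear genes (atp-3, atp-4, atp-5, cox-15, cyc-1, isp-1 and nuo-2), beside 3.61% of all genes, and for 0 of 12 MtDNA genes. atp-5 had 693, 657 and 616 CPM in the UA, DMSO and untreated libraries of batch 4 and 798, 861 and 803 CPM in those of batch 2, with batch effects spanning 0.33 (edgeR adjusted p of 3.19e-05). cox-15, which makes the heme a of complex IV, had 80.4, 74.6 and 72.2 CPM in batch 4 and 97.5, 103 and 89.2 CPM in batch 2, spanning 0.35 (adjusted p of 2.07e-05). Both genes were thus lower in every library of batch 4 than in any of batch 2. By fitted effect, these 2 batches were the lowest and the highest of both genes, so this separation is partly built in.

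cox-10, which makes the heme precursor that the cox-15 product uses, spanned 0.36 (edgeR adjusted p of 0.00131) from 18.8, 20.4, 22.7, 18.4 and 23.2 CPM in the UA libraries of batches 1 to 5, 20.9, 24.2, 23.9, 19.1 and 21.2 CPM in the DMSO libraries and 21.3, 24.8, 23.6, 17.3 and 22.8 CPM in the untreated libraries. gas-1 had 277, 306, 306, 277 and 299 CPM in the UA libraries of batches 1 to 5, 279, 325, 318, 270.3 and 303 CPM in the DMSO libraries and 287, 313, 311, 265 and 307 CPM in the untreated libraries, with a span of 0.22 (adjusted p of 0.000454). isp-1 had 563, 589, 584, 544 and 580.0 CPM in the UA libraries of batches 1 to 5, 569.5, 646, 650.4, 528 and 572 CPM in the DMSO libraries and 573, 613, 604, 517 and 581 CPM in the untreated libraries, with a span of 0.22 (adjusted p of 0.00275). These 3 genes dipped in batch 4 as well, although the UA library of batch 4 did so least for gas-1 and isp-1. mev-1, with 139, 148, 147, 146 and 142 CPM in the UA libraries of batches 1 to 5, 137, 164, 158, 131 and 133 CPM in the DMSO libraries and 136, 154, 142, 125 and 136 CPM in the untreated libraries, spanned 0.22 (adjusted p of 0.00761), and sdhb-1, with 214, 215, 215, 204 and 215 CPM in the UA libraries of batches 1 to 5, 203, 224, 223, 190.1 and 199 CPM in the DMSO libraries and 201, 222, 209.5, 169.7 and 198 CPM in the untreated libraries, spanned 0.23 (adjusted p of 0.00615).

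The steadiest nuclear genes belonged to complex I. nuo-4 spanned 0.11 between batches, nuo-1 spanned 0.14 and nuo-3 spanned 0.15, although nuo-1 (edgeR adjusted p of 0.0106) and nuo-3 (0.0193) were called and nuo-4 (0.0474) was not. nuo-4, an accessory subunit, had 347, 365, 384, 351 and 376 CPM in the UA libraries of batches 1 to 5, 348, 335, 370.0, 358 and 377 CPM in the DMSO libraries and 339, 344, 365, 347 and 363 CPM in the untreated libraries. nuo-1, the subunit that takes electrons from NADH, had 523, 571, 558, 519 and 529 CPM in the UA libraries of batches 1 to 5, 522, 579.8, 585, 527 and 566 CPM in the DMSO libraries and 532, 575, 578, 521 and 569 CPM in the untreated libraries. The highest and the lowest library differed little in both. The nuo-3 gene overlaps Y57G11C.1147 by 783 bases on the same strand, so its counts are uncertain. Among nuclear genes the smallest F statistics were those of cox-17 (adjusted p of 0.273), nuo-6 (0.0605) and atp-2 (0.0512).

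**Figure D5:**
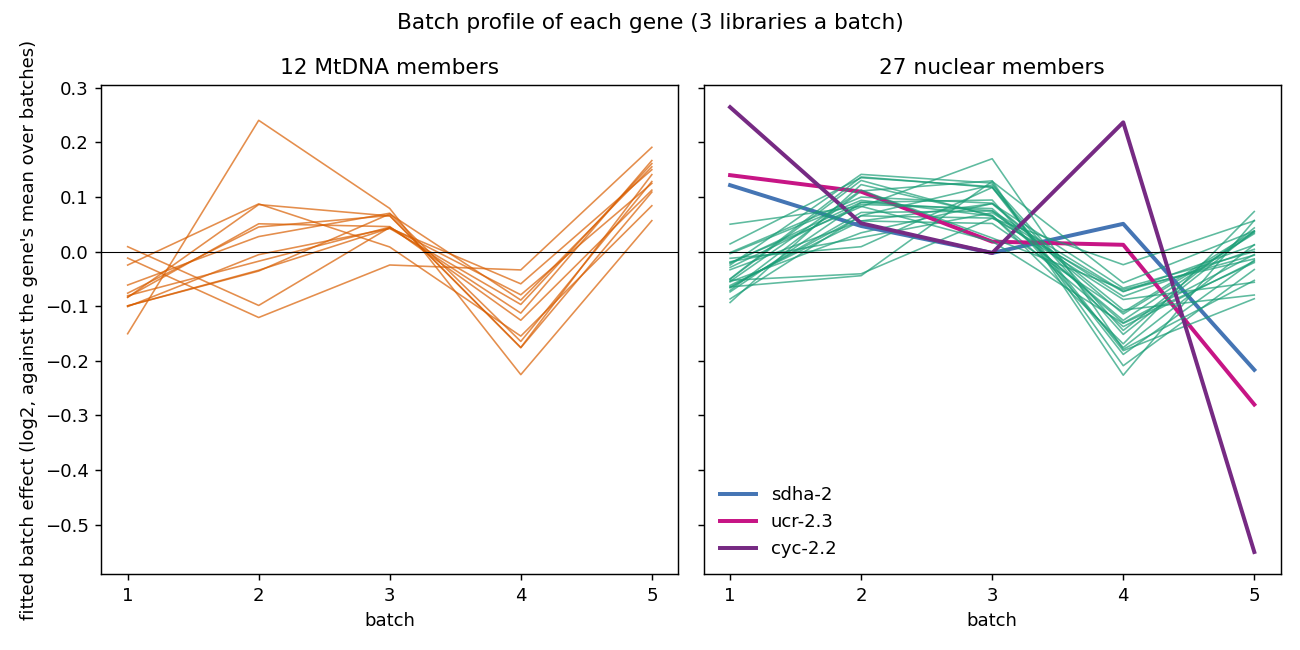
Fitted batch effect (log2, relative to the mean of the 5 batches, 3 libraries each) of the 12 MtDNA genes at the left and the 27 nuclear genes at the right, with each line 1 gene. MtDNA genes peak in batch 5 for 10 of 12, most nuclear genes dip in batch 4, and cyc-2.2, ucr-2.3 and sdha-2 (thick lines) are highest in batch 1 and lowest in batch 5.

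Among the nuclear members, nuo-4 and cox-11 had their highest fitted effect in batch 3 and their lowest in batch 1. A further 3 genes also differed from the common profile. cyc-2.2, ucr-2.3 and sdha-2 were highest in batch 1, as 19.9% of all genes were, and lowest in batch 5, as 29.6% were. Such extremes are thus not particular to these genes. They had the 3 largest F statistics of the members between batches. cyc-2.2, a cytochrome c gene (chromosome V, 12611682 to 12612218), had 50.3, 49.7 and 48.8 CPM in the UA, DMSO and untreated libraries of batch 1 and 23.97, 32.0 and 28.0 CPM in those of batch 5. It spanned 0.81 with an edgeR adjusted p of 7.12e-08. ucr-2.3 (chromosome III, 879860 to 881458) had 93.6, 98.2 and 97.7 CPM in batch 1 and 68.5, 75.1 and 72.6 CPM in batch 5, spanning 0.42 (adjusted p of 1.97e-06). sdha-2, a gene for the flavoprotein of complex II, had 119.1, 121 and 117 CPM in batch 1 and 90.4, 94.8 and 97.0 CPM in batch 5, spanning 0.34 (adjusted p of 1.79e-05). For these 3 genes, and for no other member, the libraries of batch 5 lay below all 12 others, as they did for 13.2% of all genes. The calls of ucr-2.3 and sdha-2 rested on batch 5, since without it their adjusted p was 0.0651 and 0.171, while cyc-2.2 was still called.

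Each of the 3 has a paralog among the members that followed the common nuclear profile. cyc-2.1 had 747, 712 and 739.7 CPM in batch 1 and 772, 834 and 803 CPM in batch 5. sdha-1 had 231, 236 and 244 CPM in batch 1 and 272, 258 and 268 CPM in batch 5, again in the UA, DMSO and untreated libraries. The counts of cyc-2.2 as a share of those of cyc-2.1 in the same library were 6.60% to 6.98% in batch 1, 5.14% to 5.35% in batch 2, 4.62% to 5.14% in batch 3, 6.67% to 7.29% in batch 4 and 3.10% to 3.84% in batch 5. The counts of sdha-2 as a share of sdha-1 were 47.8% to 51.6%, 39.3% to 43.3%, 39.7% to 42.5%, 47.2% to 52.5% and 33.3% to 36.7% in the same batches. For ucr-2.3 over ucr-2.1 the shares were 36.6% to 40.3%, 35.0% to 35.3%, 30.9% to 34.7%, 37.8% to 41.2% and 25.7% to 31.9%. Batches 1 and 4 were the high ones and batch 5 the low one in all 3 pairs. In contrast, ucr-2.2 over ucr-2.1 ranged from 53.3% to 67.7% with overlap of all batches. Reads that fit both copies of a pair could be split, and how the counting treated them is not given in the sources used here.

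Markers of intestine, body-wall muscle, hypodermis, neurons and germ line were all read in these whole animals. Those of the germ line and of adults were low in batch 5. The summed level of 5 germline markers was 1578 to 1640 CPM in batch 1, 1604 to 1652 CPM in batch 4 and 1209 to 1291 CPM in batch 5. That of 5 sperm markers was 158 to 175 CPM in batch 1, 162 to 166 CPM in batch 4 and 94.1 to 105 CPM in batch 5. That of 5 oocyte markers was 250.0 to 283 CPM in batch 1, 228 to 248 CPM in batch 4 and 98.2 to 122 CPM in batch 5. In batch 2 the germline, sperm and oocyte sums were 1539 to 1612, 142 to 145 and 192 to 214 CPM. In batch 3 they were 1374 to 1491, 130 to 139 and 129 to 148 CPM. The summed level of the 6 yolk protein genes, which the adult intestine makes, was 2304 to 3148 CPM in batch 1, 794 to 1116 CPM in batch 2, 349 to 454 CPM in batch 3, 787 to 1177 CPM in batch 4 and 313 to 432 CPM in batch 5. The yolk genes were thus highest in batch 1, and their levels in batch 4 overlapped those in batch 2. In the batch test 4 of 5 germline, 4 of 5 sperm, 5 of 5 oocyte and 6 of 6 yolk genes were called, beside 53.0% of all genes. The part of these markers in the profiles of cyc-2.2, ucr-2.3 and sdha-2 was not tested. Between treatments the markers called were vit-2 and vit-6, both lower in UA than in untreated larvae.

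Respiratory and mitochondrial genes outside the naming rule were taken as 10 lists of 165 genes, of which 164 were tested. In each of the 3 treatment comparisons 0 of them were called by edgeR, also at an adjusted p under 0.05, and 0 by DESeq2. At an unadjusted p under 0.05 edgeR gave 29 for UA against DMSO, 13 for UA against untreated and 8 for DMSO against untreated larvae, beside 1967, 1733 and 1111 of all 14037 genes. The lists of subunits lay slightly low in UA against DMSO. The median log2 fold change was -0.06 for 23 other complex I genes, -0.08 for 7 of complexes II and III, -0.07 for 5 of complex IV and -0.07 for 10 of the ATP synthase, beside -0.0013 for all genes. Against untreated larvae the same medians in UA were -0.03, -0.04, -0.03 and -0.03. The 17 citric acid cycle genes had 0.01 and 0.07, the 65 mitochondrial ribosome genes -0.03 and -0.0025, and the 12 genes of the mitochondrial unfolded protein response, a chaperone and protease program raised under mitochondrial stress, 0.01 and 0.01. For 8 ubiquinone synthesis genes the medians were -0.02 and 0.01, for 7 carrier and uncoupler genes -0.03 and -0.01, and for 10 genes of MtDNA upkeep and expression -0.0009 and 0.02.

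Between batches, 94 of the 164 listed genes were called, beside 53.0% of all genes. These were 11 of 23 complex I genes, 4 of 7 of complexes II and III, 3 of 5 of complex IV, 8 of 10 of the ATP synthase, 37 of 65 of the mitochondrial ribosome and 9 of 17 of the citric acid cycle. Also called were 5 of 10 genes of MtDNA upkeep and expression, 4 of 8 of ubiquinone synthesis, 6 of 7 carriers and 7 of 12 of the unfolded protein response. The median effects of the ATP synthase list in batches 1 to 5 were -0.07, 0.10, 0.08, -0.10 and 0.01, and those of complexes II and III -0.05, 0.09, 0.08, -0.11 and 0.0021. By median effect, batch 4 was the lowest in all 10 lists, batch 2 or batch 3 the highest in 9, and batch 5 the highest in 1, the unfolded protein response. That list had 0.0034, -0.03, 0.05, -0.12 and 0.06, the mitochondrial ribosome list -0.04, 0.02, 0.09, -0.12 and 0.05 and the ubiquinone list -0.03, -0.03, 0.08, -0.09 and 0.04. For the genes of MtDNA upkeep and expression, which copy, transcribe and process MtDNA, they were -0.01, 0.01, 0.02, -0.04 and -0.01.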

How the data were processed

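RNA of whole L4 larvae was poly-A selected and made into libraries with a TruSeq stranded kit. The authors aligned reads with STAR 2.5.2b to WBcel235, per their processing notes, and counted them with featureCounts 1.5.2. The deposited table gives raw counts per gene for 15 libraries, with no normalization. The strand setting and the treatment of reads that fit several places are not given in the sources used here. All columns of libraries were used. Of 20541 gene IDs, 20194 were found in Ensembl release 115, which gave coordinates and exon lengths. The 12 MtDNA genes were named by position from RefSeq.

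Counts were fitted in edgeR 4.0.16 (R 4.3.3) with TMM factors, group and batch, by the quasi-likelihood method of older versions. Genes were kept with 10 counts or more in some library and 1 CPM or more in 3. Genes with a Benjamini-Hochberg adjusted p under 0.02 over all 14037 tested genes were called, and batches were compared by an F test of their terms. CPM used TMM library sizes, and log2 CPM a prior count of 2. The ratio of MtDNA to nuclear counts was not tested. Scripts were tested on simulated data.

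Groups and batches came from the labels. Batch numbers pair the libraries: deviations from the group means of the same batch correlated at 0.458 to 0.823 for UA and DMSO, 0.413 to 0.831 for UA and untreated, and 0.494 to 0.844 for DMSO and untreated, and each library matched its own batch best in 5 of 5 cases. Members and lists were chosen with earlier results of these data known. The genes named were all MtDNA members, gas-1, isp-1, mev-1 and the sdha- and sdhb- genes. Besides these came nuclear members at either end of each comparison (3 highest, 3 lowest log2 fold changes), the 5 largest and 3 smallest F statistics, and the 3 widest and 3 narrowest batch spans. The other members are named outside this rule, after their values were seen. Alternatives were DESeq2 1.42.0, other scalings, filters and thresholds, fits without batch and fits without single libraries or batches.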

Additional observations from a re-analysis of the deposited data

Results flagged for a closer look

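Groups of 5 libraries were searched for a highest or lowest library separated from the others by more than 0.71 of the whole range of the group. Of 111 groups searched, 6 stood out, and chance alone gives about 1 in 20, or 5.55. ND4L had 8.84 CPM in untreated batch 4, where the other untreated libraries had 11.1 to 11.9 CPM. COX2 had 352 CPM in DMSO batch 5, where the other DMSO libraries had 254 to 279 CPM, and the same library had the highest ratio of MtDNA to nuclear counts. In UA batch 3, atp-2 had 3496 CPM beside 3177 to 3262 CPM in the other UA libraries, and cox-11 had 24.1 CPM beside 21.9 to 22.3 CPM. nuo-6 had 224 CPM in untreated batch 3, beside 192 to 201 CPM. sdhb-1 had 204 CPM in UA batch 4, below the 214 to 215 CPM of the other UA libraries, in the batch where most nuclear members were lowest.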

How the results depend on the processing

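No member was called for UA against DMSO or for DMSO against untreated larvae under any of the 30 alternatives of each, including every fit without a library or a batch (0 to 0 members). The batch pairs the libraries, and with no replicate block 0 members were called in each of the 3 treatment comparisons, beside 10 genes of the whole table for UA against DMSO, 12 for UA against untreated and 0 for DMSO against untreated larvae. For UA against untreated larvae, fits without a library or a batch called 0 to 1 members, the 1 being ucr-2.2 without batch 2 or without its UA library. Between batches those fits called 13 to 32 members, beside 5385 to 7830 genes of the whole table. The lowest number of members was without batch 4, and 17 were called without its DMSO library. DESeq2 called 32 and RLE scaling 30 of 39 there, and the whole-table counts of these settings are not reported here. Over the whole table, fits without a library or a batch called 17 to 162 genes for UA against DMSO, 71 to 396 for UA against untreated and 9 to 41 for DMSO against untreated larvae, and with an adjusted p under 0.05 there were 77, 213 and 30. The gap in log2 ratio between the highest and the lowest batch ran from 0.10 (without batch 5) to 0.29 (without UA batch 2 or without untreated batch 5), where leaving out single libraries was chosen after seeing the data. UA minus DMSO in that ratio ran from -0.04 (without batch 3) to 0.09, UA minus untreated from -0.05 to 0.04 and DMSO minus untreated from -0.11 to 0.02, so none kept its sign. No named gene reversed a called direction, but this had little room to occur. In the main fits no member was called between treatments, and only 2 values of named genes gained a call under alternatives. Uncalled values did change sign. For UA against DMSO, ND2 ran from -0.13 to 0.16 and ND3 from -0.19 to 0.11, while ucr-2.3 stayed between -0.14 and -0.10. Between batches, 69 values of 34 named genes lost their call and 53 gained one, and 830 did not change sides. Precision is limited by 5 libraries a group, by the depth of UA batch 5 and, for ND4L and cox-17, by fewer than 310 reads in each library; counting intervals would cover counting error only.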
